A study of Drosophila melanogaster with 6 samples.

Results

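The V-ATPase subunit genes and the autophagy genes of sorted fly midgut progenitor cells were described across young and old animals. Members were the rows of the authors' deposited table that name a single gene whose symbol begins with Vha, or with Atg and a digit, together with ref(2)P. The rule took 27 of 8164 rows, 15 for the V-ATPase and 12 for autophagy. RNA came from cells sorted by FACS from midguts of flies carrying esg-GAL4 (NP5130), UAS-GFP and UAS-GFPnlacZ (N 1099) in a yw background, a genotype that both ages shared. The escargot driver is active in intestinal stem cells and in their immediate daughters, so the sort enriched for stem cells and did not isolate them. The 6 libraries came from 3 batches of midguts at 6 to 8 days, the young group, and 3 at 59 to 65 days, the old group. The question was which transcripts of this population differ between the ages.

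The V-ATPase is a rotary proton pump. Its peripheral V1 sector hydrolyses ATP, and its membrane sector V0 carries protons into lysosomes, endosomes and secretory granules, or out of specialised cells such as the acid-secreting copper cells of the midgut. Autophagy wraps cytoplasm in a double membrane, the autophagosome, which then fuses with a lysosome that the V-ATPase keeps acidic, so the families act one after the other on the same cargo. In the fly gut both are studied in stem cell maintenance and ageing.

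The account of the ages rests on the comparison that the authors deposited. It gives each row a log2 fold change, a p-value, its adjusted form and, over all libraries, the mean log2 CPM, where CPM are reads scaled to a common library total. The table does not name the groups it compares, and young and old are taken as the only comparison that the labels give. No source used here says which age is the numerator, so a positive value cannot be read as higher in either age. The table's columns of single libraries match no sample label and were not used, so no value by library, no depth per library and no standard error can stand beside a difference. In bulk samples, fewer cells of a type and less RNA per cell cannot be told apart. The progenitor markers esg, Sox100B and Egfr had means of 835, 387 and 234 CPM in the authors' deposited table, and all 9 listed progenitor markers were measured, from 26.5 to 835 CPM. Markers of other midgut cells were present as well, with 4 enteroendocrine markers at 26.8 to 122 CPM, 5 enterocyte markers at 3.53 to 495 CPM and 3 copper cell markers at 17.2 to 61.8 CPM in the authors' deposited table.

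None of the 27 member rows was called at an adjusted p under 0.05 in the authors' deposited table, where 7.1% of all rows were called. At an adjusted p under 0.01, where 4.61% of all rows were called in the authors' deposited table, the count could then only be 0. At an unadjusted p under 0.05 a single member passed in the authors' deposited table, Vha100-1, where 19.3% of all rows did. A row without a call is not thereby shown to be equal at both ages. The largest log2 fold change, -0.67 for Vha100-1 in the authors' deposited table, is a factor of 1.59, and the other 26 lay between -0.46 and 0.45, with adjusted p from 0.485 to 0.995. Among the 3765 rows of 16 to 500 CPM in the authors' deposited table, the range that holds 23 of the members, the 121 called rows had absolute log2 fold changes of 0.87 or more. In that range 430 rows had an unadjusted p under 0.05. Rows of the members' abundance thus passed either threshold less often than all rows did.

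**Figure D1:**
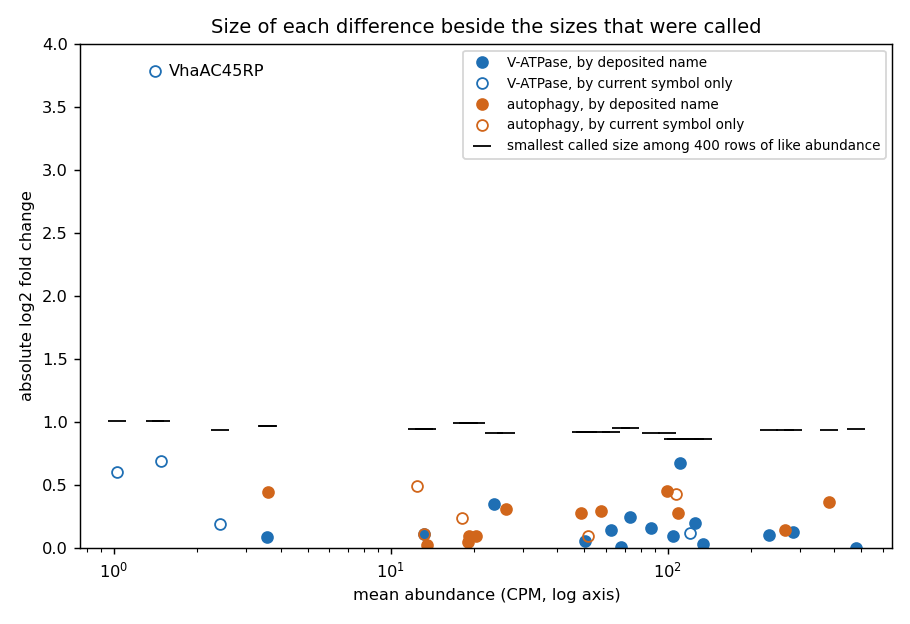
Absolute log2 fold change between the ages against mean abundance in CPM (log axis) for members by deposited name (filled) and for single-gene rows that carry a V-ATPase or autophagy symbol only in the current annotation (open). Horizontal marks give the smallest absolute log2 fold change among the called rows within the 400 rows of like abundance. All 27 filled points lie below their marks, the highest being Vha100-1 at 0.67, and VhaAC45RP alone stands above, at 3.79.

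The V1 sector had 8 member rows, and their log2 fold changes lay between -0.13 and 0.35 in the authors' deposited table. Subunit A, which binds and splits ATP, is encoded by Vha68-1 and Vha68-2, and the authors' deposited table lists 0.11 and -0.13 for them. Vha55 (FBgn0005671, dm3 3R from 8449484 to 8453551) encodes subunit B, the partner of A in the catalytic head, and averaged 135 CPM with a difference of -0.03 (adjusted p = 0.990) in the authors' deposited table. All 3 head genes therefore lay close to 0. Subunits D and F form the central rotor shaft. Vha36, which encodes D, stood at -0.01 and Vha14, which encodes F, at 0.35 (adjusted p = 0.632) in the authors' deposited table. Vha14, at 23.6 CPM, was the largest positive value of the V1 sector. Subunits C, E and G belong to the peripheral stalks and their collar, which hold the head in place. Vha44, Vha26 and Vha13 encode them and had -0.10, 0.11 and 0.25 in the authors' deposited table.

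Within the V0 sector stood 7 member rows, of which 6 lay between -0.20 and 0.14 in the authors' deposited table. Vha16 (FBgn0262736, dm3 2R from 2512747 to 2520633) encodes subunit c of the proton-carrying ring and was the most abundant member, at a mean of 478 CPM. It differed by 0.0039 on the log2 scale (adjusted p = 0.983) in the authors' deposited table. VhaPPA1-1, for the related ring subunit c'', had 0.05, and VhaAC39, for subunit d that couples the ring to the shaft, had -0.16 in the authors' deposited table. Subunit e, a small one, is encoded by VhaM9.7-1 and VhaM9.7-2, which had 0.09 and 0.14 in the authors' deposited table. VhaM9.7-1 lies wholly inside the span of the opposite-strand row CG18675;tipE. The kit does not mark strand, so reads of any exon bases that the rows share cannot be told apart. Spans include introns, and overlap of exons was not measured.

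Subunit a forms the path of the protons through the membrane, and its versions direct the pump to different membranes. Vha100-1 (FBgn0028671, dm3 3R from 24956772 to 24963702), known in the fly for its work at synapses, averaged 111 CPM and had -0.67 (p = 0.0375, adjusted p = 0.221) in the authors' deposited table. It ranked 1383rd of 8164 rows by p. Vha100-2 (FBgn0028670, dm3 3R from 14216039 to 14224876), at a similar mean of 125 CPM, had -0.20 (adjusted p = 0.817) in the authors' deposited table. Whether the subunit a genes differed from one another in their response was not tested. Of the 400 rows nearest in abundance, the gene's own included, 11.3% had a larger absolute log2 fold change than Vha100-1, and for Vha100-2 that share was 72.5%. Vha100-1 overlapped the opposite-strand row CG14512 by only 11 bases. Vha100-2 shared 24.4% of its span with the opposite-strand gene koko, which had 0.31 at 24.5 CPM in the authors' deposited table.

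**Figure D2:**
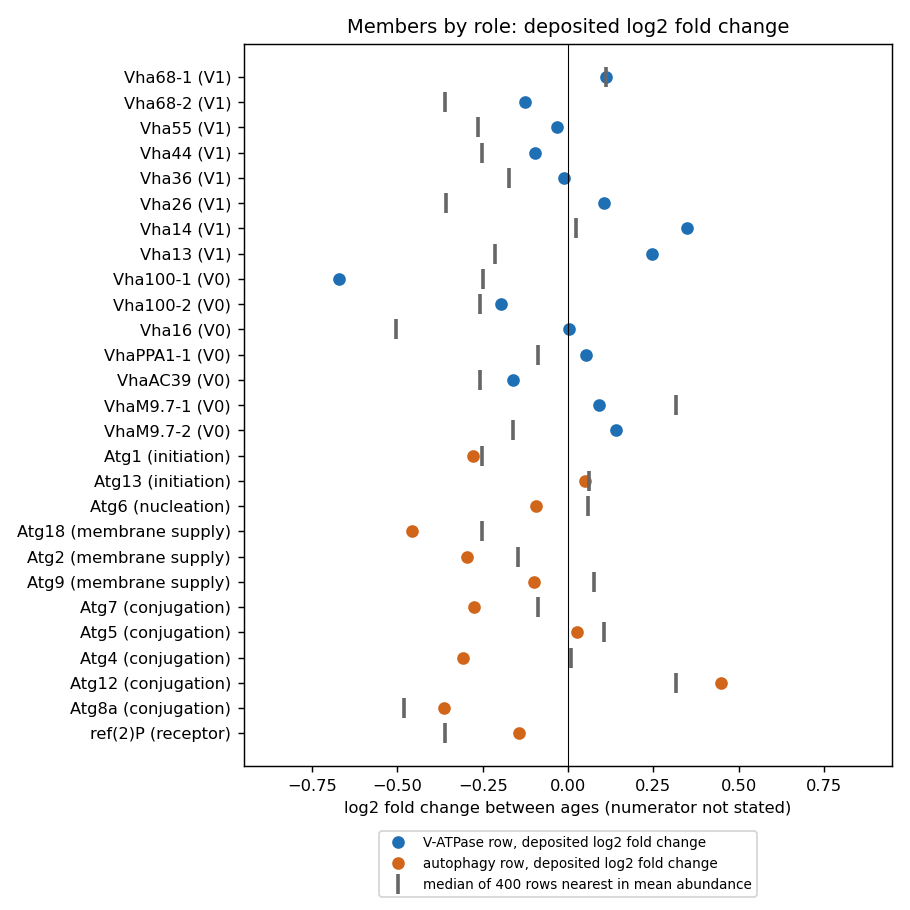
Deposited log2 fold change between the ages for the 27 members, ordered by role, with V-ATPase rows in blue and autophagy rows in orange. Grey marks give the median log2 fold change of the 400 rows nearest in mean abundance. Vha100-1 at -0.67 stands apart on the negative side, and most other V-ATPase points lie to the right of their marks.

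No autophagy gene was called. Of 12 rows, 9 had a negative and 3 a positive sign in the authors' deposited table, or 75.0% negative, where 46.2% of all rows were. In the range of 16 to 500 CPM, 9 of 10 autophagy rows were negative, where 61.0% of all rows were. At any abundance and with the genes under older names described further on, 11 of 17 single-gene rows were negative, or 64.7%. No test of these shares was made. The median of the 12 was -0.21 on the log2 scale, against 0.05 over all rows. Initiation begins with the kinase Atg1 and its partner Atg13. Atg1 (FBgn0260945, dm3 3L from 12777529 to 12798214) had -0.28 at 109 CPM (adjusted p = 0.727), and Atg13 had 0.05 in the authors' deposited table. Of the span of Atg1, 28.5% was shared with the opposite-strand row Pegarn. In all, 10 of the 27 members overlapped a row on the other strand, and of the autophagy genes Atg7 shared most, 31.0% of its span with CG5335, which had -0.29 in the authors' deposited table. Atg6, the fly Beclin and a part of the lipid kinase complex that marks the forming membrane, had -0.09 in the authors' deposited table.

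The 3 genes that supply the growing membrane had a negative sign, where 61.0% of all rows of 16 to 500 CPM did. Atg2 encodes a lipid transfer protein, Atg9 a membrane protein of the vesicles that seed the structure, and Atg18 a protein that binds its phosphoinositide. Their values in the authors' deposited table were -0.29, -0.10 and -0.46. Atg18 (FBgn0035850, dm3 3L from 8180101 to 8183814), at 99.3 CPM, had the largest negative value and the smallest p of the autophagy rows, 0.161 unadjusted and 0.485 adjusted, in the authors' deposited table.

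Members of the conjugation systems, which attach the ubiquitin-like Atg12 to Atg5 and Atg8a to lipid, differed in sign. Atg7, the activating enzyme of both systems, had -0.27 (adjusted p = 0.715) in the authors' deposited table. Atg4, a protease that trims Atg8a, had -0.31 (adjusted p = 0.700) in the authors' deposited table. Positive values stand in the authors' deposited table for Atg12, 0.45 at only 3.61 CPM (adjusted p = 0.651), and for Atg5, 0.02. Atg8a (FBgn0052672, dm3 X from 10658911 to 10662368), the coat protein of autophagosomes and the usual marker of the process, had -0.36 at 382 CPM (adjusted p = 0.611) in the authors' deposited table. ref(2)P (FBgn0003231, dm3 2L from 19542446 to 19545548), the receptor known as p62 in mammals, which links ubiquitinated cargo to Atg8a, had -0.14 at 266 CPM (adjusted p = 0.877) in the authors' deposited table. Both encoded proteins are themselves degraded by autophagy, and their transcript levels are no measure of its flux.

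Over the whole table, log2 fold changes were lower at higher abundance, which bears on how the member values read. The 1404 rows of 64 to 500 CPM had a median of -0.28 on the log2 scale in the authors' deposited table, and 1070 of them had a negative sign. In the same range, the 10 V-ATPase rows had a median of -0.06 and the 4 autophagy rows one of -0.32 in the authors' deposited table. Each member was therefore also set against the median of the 400 rows nearest to it in mean abundance. Measured so, 12 of 15 V-ATPase rows lay above the rows of like abundance, and 3 of 12 autophagy rows did, where 4067 of all 8164 rows lay above. The family medians on that scale were 0.16 for the V-ATPase and -0.11 for autophagy. The direction of the V-ATPase median depended on the scale, being 0.0039 as deposited and -0.04 after subtraction of the median of all rows. No test was made of either median or of the difference between the families, since genes are not replicates. The cause of the trend with abundance was not tested.

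**Figure D3:**
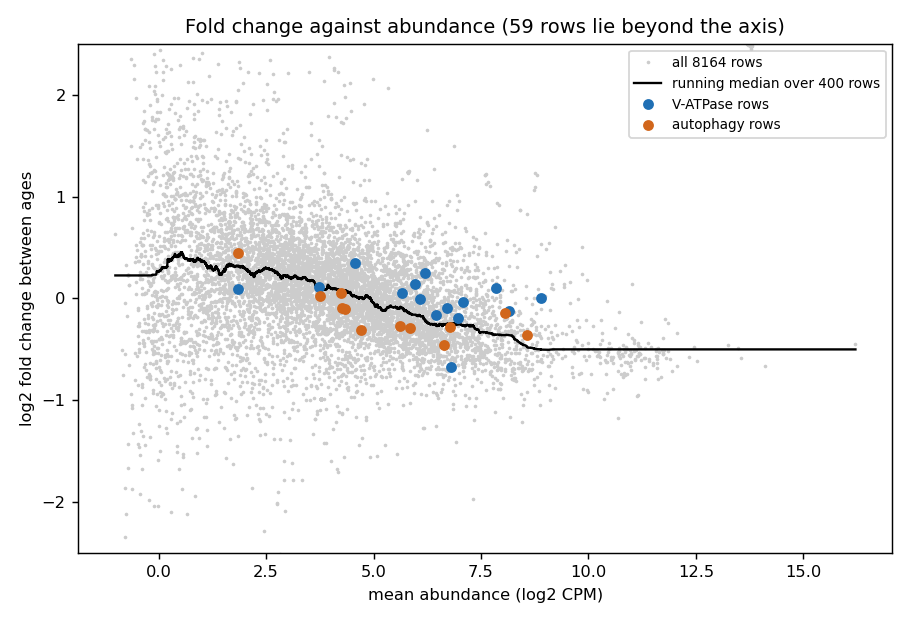
Deposited log2 fold change between the ages against mean log2 CPM for all 8164 rows (grey), with the running median over 400 rows (line), V-ATPase rows (blue) and autophagy rows (orange). The line falls from positive to negative values as abundance grows, and 12 of 15 V-ATPase points lie above it, against 3 of 12 autophagy points.

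The V-ATPase rows farthest above the rows of like abundance were the ring gene Vha16 and the V1 genes Vha26 and Vha13. Their differences from the median of like rows were 0.51, 0.46 and 0.46 on the log2 scale. For Vha16, 99.3% of the 400 like rows had a larger absolute log2 fold change. This share was 97.5% for Vha36, 96.0% for Vha55 and 91.3% for VhaPPA1-1. On the deposited scale these 4 genes were thus among the rows of smallest absolute log2 fold change at their abundance. Relative to the median of like rows they were not at 0. Vha16 lay above it by 0.51, Vha36 by 0.16, Vha55 by 0.23 and VhaPPA1-1 by 0.14. Vha100-1, VhaM9.7-1 and Vha68-1 lay below the like rows, with differences of -0.42, -0.22 and -0.00031. Among autophagy rows, ref(2)P, Atg12 and Atg8a lay above by 0.22, 0.13 and 0.12. Atg4 was the farthest below, with a difference of -0.32.

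On the deposited scale, small differences were common among the V-ATPase rows. Of 15 V-ATPase rows, 12 had an unadjusted p over 0.5 in the authors' deposited table, or 80.0%, and 5 of 12 autophagy rows, or 41.7%, where 36.6% of all rows did. An absolute log2 fold change under 0.25 was found for 13 of 15 V-ATPase rows and 5 of 12 autophagy rows, against 38.1% of all rows in the authors' deposited table. Within 16 to 500 CPM the shares under 0.25 were 84.6% for the V-ATPase, 40.0% for autophagy and 45.2% for all rows. Those with an unadjusted p over 0.5 were 76.9%, 40.0% and 41.5% there.

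Levels differed more between genes than between ages, from 4.22 to 315 CPM per kilobase against a factor of at most 1.59. They were compared as mean CPM over the libraries of both ages, divided by the length in kilobases of the longest transcript that each row lists and the annotation holds. Atg8a was highest, at 315 CPM per kilobase, and was 1.96 times the level of Vha16, at 160 CPM per kilobase. Vha68-2, ref(2)P, Vha13 and Vha26 followed, at 113, 111, 104 and 102 CPM per kilobase. Autophagy genes other than Atg8a and ref(2)P were lower, from 6.32 CPM per kilobase for Atg13 to 39.3 CPM per kilobase for Atg18. Since the spread over libraries was not available, neighbours in this order cannot be told apart.

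Genes for subunits A and e were unequal in level. Vha68-2 stood at 22.2 times the level of Vha68-1 per kilobase, which had 5.07 CPM per kilobase. VhaM9.7-2, at 89.3 CPM per kilobase, stood at 21.2 times the level of VhaM9.7-1. For subunit a, Vha100-2 and Vha100-1 were close, at 41.2 and 36.1 CPM per kilobase, and which of them was higher cannot be told. The more abundant copy was thus Vha68-2 for subunit A and VhaM9.7-2 for subunit e. Reads common to related copies could have been split between them, and no source used here says how the authors counted such reads.

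**Figure D4:**
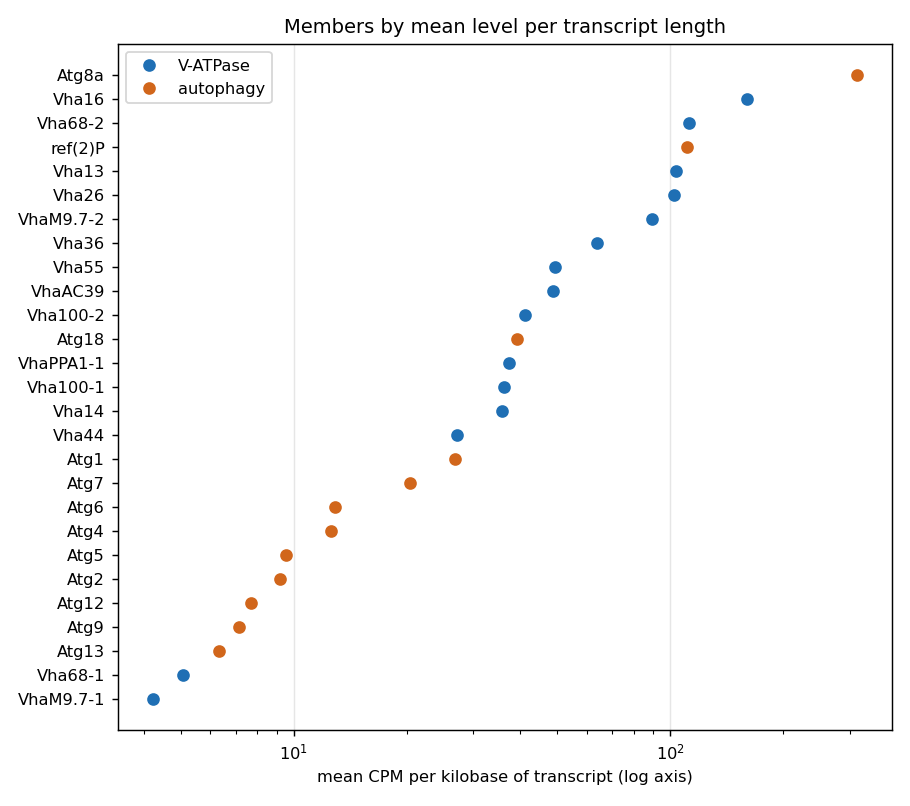
Mean CPM per kilobase of transcript (log axis) for the 27 members, ordered by level, over the libraries of both ages. Atg8a at 315 and Vha16 at 160 are highest, and Vha68-1 at 5.07 and VhaM9.7-1 at 4.22 are lowest.

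Several genes of these families appear in the table under older names or in rows of several genes, outside the rule. The current annotation holds 33 genes with a Vha symbol, of which 21 matched a row of any kind and 15 were members. It holds 20 genes with an Atg symbol and a digit, of which 19 matched a row and 11 were members. The remaining genes, among them Atg8b and Vha16-2 to Vha16-5, were not analysed here. VhaSFD, for the V1 subunit H, shares its row with CG31782 and CR31808, and the authors' deposited table lists 0.08 for the row. CG8029, now VhaAC45, the accessory subunit of the pump, had 0.12 at 121 CPM (adjusted p = 0.887) in the authors' deposited table.

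One row outside the rule was called. CG31030 (FBgn0051030, dm3 3R from 25990414 to 25992152), now VhaAC45RP and related to that accessory subunit, stood at 3.79 on the log2 scale (adjusted p = 8.35e-11) in the authors' deposited table. In the fly it is known from neurons, where it takes part in the acidification of synaptic vesicles. Its mean was only 1.40 CPM in the authors' deposited table, and it was 43rd of 8164 rows by p. Of the 400 rows nearest in abundance, 72 were called. Whether a single library sets the value was not tested. The enteroendocrine markers had the same sign, all 4 of 4 positive from 0.63 to 2.78, with Ast-C and npf called, in the authors' deposited table. Of 5 enterocyte markers, 4 were positive in the authors' deposited table, and the enterocyte markers thus did not share one sign. CG31004 (mesh), CG6981 (Ssk) and LvpH were called at 1.31, 1.50 and 1.85, with means of 27.7, 13.9 and 5.69 CPM. Myo31DF, the most abundant of the 5 at 495 CPM, had -0.56 and was not called. Its difference from the median of like rows was -0.06. The progenitor markers, those of the sorted population, were negative in 7 of 9 cases with a median of -0.35 in the authors' deposited table. Of them sna alone was called, at 1.50. Relative to rows of like abundance the progenitor markers were mixed in sign. There esg, Dl, Sox100B, pnt and sna lay above, by 0.10, 0.12, 0.13, 0.01 and 1.74. Below lay Sox21a, hdc, N and Egfr, with differences of -0.31, -0.29, -0.01 and -0.31. The part of these cell types in the value of VhaAC45RP was not tested.

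Vha100-4, Vha100-5 and Vha68-3, also under older names, were scarce and not called. CG7678, now Vha100-4 and known from the acid-secreting copper cells, had 0.19 at 2.42 CPM (adjusted p = 0.771) in the authors' deposited table. Its neighbour Vha100-2 lies 513 bases away and stood at 46.4 times its level per kilobase. The copper cell markers lab, dve and Ptx1 had -0.45, 0.64 and -0.08 in the authors' deposited table, and none was called. CG12602, now Vha100-5, had 0.69 (adjusted p = 0.297) in the authors' deposited table. CG5075, now Vha68-3, had -0.60 (adjusted p = 0.551) in the authors' deposited table, and lies 170 bases from Vha68-2. The tubule marker NaPi-T was the only one of its list measured, at 3.99 CPM in the authors' deposited table.

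Autophagy genes under older names had no call either. CG1347, now Atg17, the scaffold of the initiation complex, had -0.43 at 108 CPM in the authors' deposited table. CG11877, now Atg14, a partner of Atg6, had 0.49 at 12.5 CPM (adjusted p = 0.409) in the authors' deposited table. For the conjugation system, Aut1, now Atg3, and CG31033, now Atg16, had 0.11 and 0.24 in the authors' deposited table. CG6194, now Atg4b, a second gene for the protease, had -0.09 in the authors' deposited table. With the genes under older names, the autophagy median was -0.10 over 17 rows and that of the V-ATPase 0.07 over 20 rows. Atg10, Atg18b and Atg101 share rows with other genes and are not among the 17. Their rows had -0.21, -0.25 and -0.30 in the authors' deposited table, and none was called.

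Genes that act before and after these families held 1 call. Of 9 measured genes of TOR complex 1 and its control, CG11299, which encodes sestrin, an inhibitor of the complex, was called negative at -1.04 (adjusted p = 0.0294) in the authors' deposited table. For the kinase gene Tor, and for SNF1A, the AMPK catalytic subunit that can activate Atg1, the authors' deposited table lists -0.09 and -0.56 (adjusted p = 0.330 for SNF1A). Calls numbered 0 in the authors' deposited table among 4 genes of initiation and nucleation, 10 of fusion and 9 of the lysosome. Of these 23, 0 had an unadjusted p under 0.05. Over all rows, 7.1% were called and 19.3% had an unadjusted p under 0.05, and no test of the counts in these lists was made. In the first of these lists the smallest p belonged to CG12772, now Rubicon, CG6116, now Uvrag, and Pi3K59F, the lipid kinase itself, at -0.20, -0.13 and -0.07 in the authors' deposited table. Syx17, the SNARE of the autophagosome that drives fusion, had -0.48 (adjusted p = 0.446), and Rab7, the GTPase of late endosomes, -0.39 (adjusted p = 0.598) in the authors' deposited table. A further fusion gene, usnp, now Snap29, which encodes another SNARE, had 0.39 (adjusted p = 0.618) in the authors' deposited table. Among lysosomal genes, the sterol transporter gene Npc1a had -0.60 (adjusted p = 0.355), and spin, for a lysosomal efflux carrier, -0.41 (adjusted p = 0.561) in the authors' deposited table. Cp1, for the protease cathepsin L, had -0.32 (adjusted p = 0.678) in the authors' deposited table. In the authors' deposited table these lists had medians of -0.10 (initiation and nucleation), -0.10 (TOR control), -0.11 (fusion) and -0.10 (lysosome). Such medians do not take the trend with abundance into account. Relative to rows of like abundance, the lysosomal genes CG10992 (CtsB), cathD, Npc2a and CG3305 (Lamp1) had 0.21, 0.20, 0.18 and 0.16. Cp1, spin and trpml had 0.04, 0.04 and 0.14, and Ppt1 and Npc1a had -0.04 and -0.33. On that scale the fusion genes Syx17, Rab7 and usnp had -0.49, -0.03 and 0.26. Mitf, the transcription factor known to drive V-ATPase and autophagy genes in flies, was not analysed here.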

How the data were processed

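The members and gene lists were chosen with earlier results of these data known. Per the submitters' processing notes, the tools were edgeR, TopHat 1.2.0, Bowtie and FastQC and the build dm3, without roles. Per the labels' protocols, libraries came from the second version of the TruSeq RNA kit, which does not mark strand. The authors deposited, per the file headers, a log2 fold change with its p-value and adjusted p-value and a mean log2 CPM for 8164 rows. The 12 columns of single libraries match no sample label and were not used. The planned fit on counts and a comparison by library were therefore not made, and depth is not given here. No p-value was computed. What spread the deposited p-values measure is not stated, and the labels give 3 batches of midguts per age.

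Symbols and transcript lengths came from Ensembl release 115 (BDGP6) through the rows' transcripts, which matched for 7726 rows and all 27 members. Coordinates are in dm3, 1-based. Deposited starts were read as 0-based, because end minus start equalled the annotated span in 539 of 4737 single-transcript rows and was 1 less in 138. Called means a deposited adjusted p under 0.05. Rows of like abundance are the 400 nearest by rank of mean log2 CPM, a step tested on simulated data. Every member is named. Of other lists, called genes or those of smallest p are named, and further genes were chosen after their values were seen. Python 3.11.15, numpy 2.4.6, pandas 2.3.3 and matplotlib 3.10.9 were used.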

Additional observations from a re-analysis of the deposited data

How the results depend on the processing

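At an adjusted p under 0.01 and at a minimum of 5 CPM the count of called members could only be 0, as in the main setting. With rows of several genes added, 28 rows in all, the count stayed 0. It was 1 at an unadjusted p under 0.05, where Vha100-1 passed, and 1 with members taken by current symbol, where VhaAC45RP was called. The V-ATPase median of 0.0039 became 0.16 relative to the running median over 400 rows and 0.17 relative to that over 800 rows, and its sign turned to -0.04 and -0.0033 after subtraction of the median of all rows and at 5 CPM or more. The autophagy median of -0.21 was -0.10 by current symbol and lay between -0.27 and -0.11 under the other alternatives tried. One of these, adding rows of several genes by deposited name, brought in no autophagy row and left the same 12 rows. A median was counted as moved past 0.1 on the log2 scale, since no spread between libraries was available. The cause was not tested. The windows of 800 rows and the median without ref(2)P were added after the data were seen. No paired analysis was possible because the columns of single libraries match no sample label. For the same reason the alternatives that need counts (leaving out a library, another normalization, a filter on counts) were not run, and whether 1 library sets a value was not tested.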
